A study of Mus musculus with 35 samples.

Results

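The 10 genes Socs1, Socs2, Socs3, Cish, Pim1, Pim2, Osm, Bcl2l1, Bcl6 and Lnk are targets of the transcription factor STAT5, and most of them encode feedback inhibitors, kinases or survival factors of cytokine signalling. They were chosen by name, as the entries of the count files with their mouse Entrez gene IDs, and they make up 10 of 19138 genes counted. Lnk is listed in the gene reference as Sh2b3. All 10 passed the filter on low counts, which left 14945 genes for testing.

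A cytokine receptor that lacks an enzyme of its own works through JAK kinases, which phosphorylate STAT proteins, and STAT5 dimers then enter the nucleus and bind DNA. Among the genes STAT5 activates are CIS and the SOCS proteins, which bind receptors or JAKs and dampen the signal, and BCL-XL and the PIM kinases, which favour survival. The V617F change in JAK2 keeps the kinase active without cytokine and is the most common driver of human myeloproliferative neoplasms. EZH2 is the catalytic subunit of the Polycomb complex that places the repressive mark H3K27me3.

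RNA was sequenced from long-term hematopoietic stem cells (LT-HSCs), the self-renewing stem cells of the blood, with 1000 sorted cells per library and 35 libraries from mice of 6 genotypes. There were 6 libraries from SclCre JAK2V617F mice lacking both copies of Ezh2 (JAK2-VF Ezh2-/-), 8 from SclCre JAK2V617F mice lacking one copy (JAK2-VF Ezh2+/-) and 6 from SclCre JAK2V617F mice with intact Ezh2 (JAK2-VF). Their counterparts without JAK2V617F were 4 Ezh2-/-, 7 Ezh2+/- and 4 control libraries, so that every group, controls included, carried the SclCre transgene. SclCre drives recombination from regulatory sequence of the Scl gene, which is active in blood stem and progenitor cells. The sources used here do not state the age of the mice, the time since recombination, the share of cells recombined or the species of the JAK2V617F sequence. The labels put 14 libraries in experimental batch 1 and 21 in batch 2, and 20 came from females and 15 from males. The 4 controls were all female, while the JAK2-VF group held 2 females, both in batch 1, and 4 males, all in batch 2. The JAK2-VF Ezh2-/- group held 5 females and 1 male, with 3 libraries in each batch. The Ezh2-/- group held 1 female and 3 males, with 1 library in batch 1 and 3 in batch 2. The JAK2-VF Ezh2+/- group held 5 females and 3 males, and the Ezh2+/- group 3 females and 4 males. Which animal gave which library is not labelled, so p-values reflect variation among libraries, part of which may be technical.

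Library totals ran from 13.6 to 48.6 M counts with a median of 24.9 M. A part of Ezh2 that the authors counted as an entry of its own held 0 of 5046 Ezh2 counts in JAK2-VF Ezh2-/- libraries, against 6.34 to 9.27% of Ezh2 counts in single JAK2-VF libraries, and 3 of 2593 in Ezh2-/- libraries, against 6.02 to 8.72% in controls. In 2 libraries labelled Ezh2+/-, both of batch 1, the counts go against a label. Replicate 3 had 0 of 831 Ezh2 counts in that part. Replicate 1 had 85 of 895 (9.50%), above every control. Shares in JAK2-VF Ezh2+/- libraries, 4.08 to 8.50%, overlapped those in JAK2-VF libraries, so a high share says little about loss of 1 copy. Labelled male, replicate 1 had 391 CPM of Xist, the RNA that coats the inactive X of females. This level lay between those of the 14 other male libraries (0.448 to 14.4 CPM) and of the 20 female ones (590 to 1351 CPM). Each count of the 10 genes was repeated without both. Ezh2 itself fell by 1.498 ± 0.21 on a log2 scale in JAK2-VF Ezh2-/- against JAK2-VF libraries by edgeR (adjusted p = 0.000102). It differed by -0.95 ± 0.26 in Ezh2-/- against control libraries, without passing (edgeR adjusted p = 0.483). With 1 copy lacking, Ezh2 differed by -0.65 ± 0.19 with JAK2V617F and by -0.32 ± 0.23 without, and neither passed. Averaged over the 3 Ezh2 genotypes, Ezh2 was higher with JAK2V617F by 0.46 ± 0.12 (edgeR adjusted p = 0.00451). All 12 LT-HSC markers were detected in every group.

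The DNA next to some of these genes carries the short palindrome that STAT5 dimers prefer, TTCNNNGAA, where N is any base. RefSeq promoter windows of GRCm38.p6, a later build than the mm9 named for the reads, which hold the 250 bases before an annotated start and the 50 after it, were found for 8 of the 10 genes, 12 windows in all. Socs2 and Osm were not among them. The palindrome, which reads the same on both strands, lay in 4 of these windows, of 3 genes, while 8.30% of all 32851 windows held at least 1 copy. The windows of Cish and Socs3 and the copy-richest window of Bcl6 are printed because, of these 3 genes with the same letters, Cish rose with JAK2V617F, Bcl6 fell and Socs3 did not pass the test. Each runs 5′ to 3′ on the strand of its gene, with the palindromes in capitals. The Cish window is chr9:107296409-107296708 (plus strand), the Socs3 window chr11:117969317-117969616 (minus strand) and the Bcl6 window chr16:23981234-23981533 (minus strand).
Cish: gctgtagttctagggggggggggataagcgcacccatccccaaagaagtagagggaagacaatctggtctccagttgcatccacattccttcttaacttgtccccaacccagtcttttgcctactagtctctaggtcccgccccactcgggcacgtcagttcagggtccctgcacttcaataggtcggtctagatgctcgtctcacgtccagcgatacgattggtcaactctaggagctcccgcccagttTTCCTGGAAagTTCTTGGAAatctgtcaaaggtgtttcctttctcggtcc
Socs3: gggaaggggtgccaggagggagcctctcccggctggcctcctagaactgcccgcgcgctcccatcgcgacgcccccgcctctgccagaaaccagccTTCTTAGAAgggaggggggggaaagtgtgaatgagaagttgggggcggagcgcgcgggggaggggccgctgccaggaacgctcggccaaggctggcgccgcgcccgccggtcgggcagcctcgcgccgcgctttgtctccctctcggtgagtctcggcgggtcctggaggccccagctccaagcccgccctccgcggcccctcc
Bcl6: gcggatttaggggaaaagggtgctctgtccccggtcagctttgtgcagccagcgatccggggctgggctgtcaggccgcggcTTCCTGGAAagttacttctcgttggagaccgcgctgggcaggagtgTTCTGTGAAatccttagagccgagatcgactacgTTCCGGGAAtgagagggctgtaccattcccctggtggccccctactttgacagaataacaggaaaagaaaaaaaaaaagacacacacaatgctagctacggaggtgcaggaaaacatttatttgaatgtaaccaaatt

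Cish had 2 copies, starting at bases 251 and 262 of its window, at and just after the annotated start, and 0.457% of all windows had 2 or more. Socs3 had 1, at base 97. The printed Bcl6 window had 3, at bases 83, 129 and 163, and 11 windows of the 32851 (0.0335%) had 3 or more. The window of another Bcl6 start, chr16:23988803-23989102, had 1 copy (TTCTCAGAA). A match is a run of letters and no evidence of binding, and STAT5 binding was not measured.

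Per kilobase of counted length, the 10 genes spanned a wide range of abundance. On the scale of CPM (counts scaled to a common library total) per kilobase of gene, averaged over all 35 libraries, Cish was the most abundant at 129, followed by Bcl2l1 at 63.7, Socs3 at 60.6, Pim2 at 54.6 and Socs2 at 45.1. The levels of the last 4 overlapped one another over single libraries. Pim1 stood at 16.96 and Osm at 6.53, and Lnk at 2.94, Bcl6 at 1.65 and Socs1 at 1.19 were scarce, again with overlapping libraries. The order changed with genotype. Socs2 was second only to Cish in JAK2-VF Ezh2-/- libraries, at 84.7 CPM per kb, and stood sixth, at 15.2 CPM per kb, in controls, below Pim1 at 15.6. The following levels of single genes are in CPM and compare the same gene between libraries. In bulk samples such as these, more cells expressing a gene and more RNA per cell cannot be told apart.

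**Figure D1:**
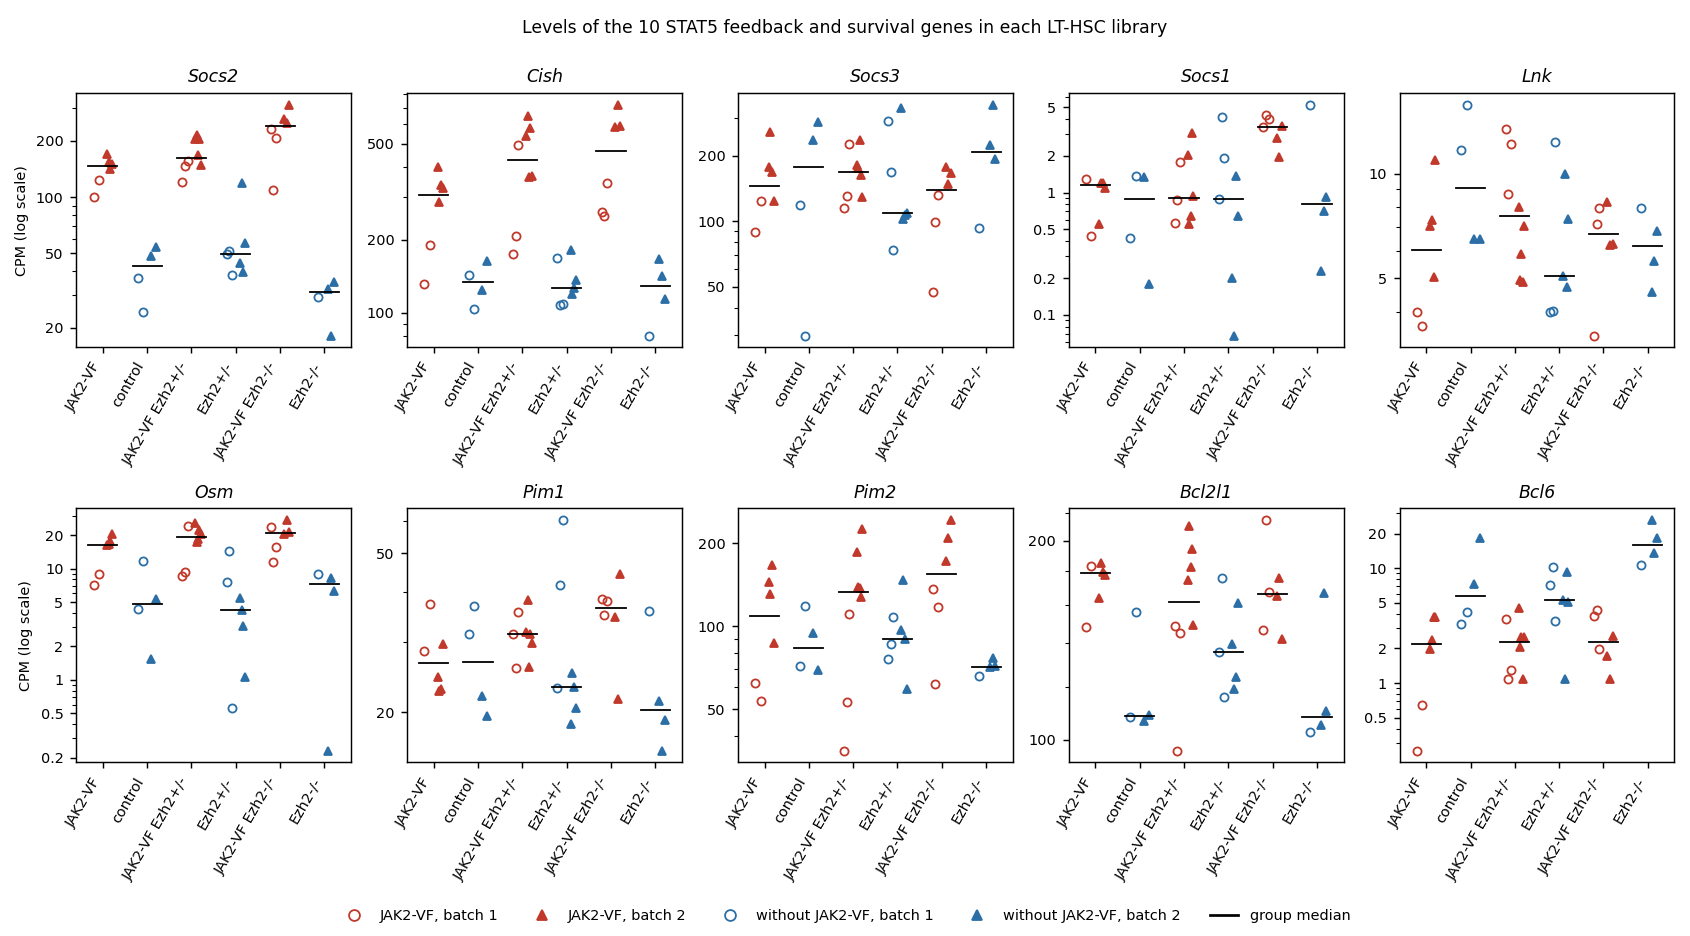
Level of each of the 10 genes in every library, in CPM on log axes, with each JAK2-VF group left of its counterpart without JAK2V617F. Open circles are batch 1, filled triangles batch 2, and bars are group medians. Socs2 groups do not overlap within any pair, and Bcl6 libraries with JAK2V617F all lie at or below 4.46 CPM.

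In cells with JAK2V617F the feedback inhibitor genes Socs2 and Cish were 4.37-fold and 2.75-fold higher and the cytokine gene Osm 3.49-fold higher, averaged over the 3 Ezh2 genotypes with equal weight. The survival genes Pim2 and Bcl2l1 were 1.43-fold and 1.33-fold higher, and the repressor gene Bcl6 was at 0.252 times its level without JAK2V617F. These 5 rose and Bcl6 fell at an edgeR adjusted p under 0.05. The test called 25.4% of all genes in this averaged comparison, 12.9% higher and 12.5% lower. The median log2 change was 0.46 over the 10 genes and -0.01 over all genes tested. Socs3, Socs1, Lnk and Pim1 did not pass.

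Within the pairs the count differed. In JAK2-VF Ezh2-/- against Ezh2-/- libraries 5 of the 10 passed, Socs2, Cish, Osm and Pim2 higher and Bcl6 lower, where 4.81% of all genes were called, 2.84% higher and 1.97% lower. In JAK2-VF Ezh2+/- against Ezh2+/- libraries Socs2, Cish and Osm rose, where 9.0% of all genes were called, 4.82% higher and 4.18% lower. In JAK2-VF against control libraries Socs2 alone passed, where 4.15% of all genes were called, 2.34% higher and 1.81% lower. The median log2 changes of the 10 genes were 0.91, 0.29 and 0.08 in these 3 pairs, and those of all genes 0.01, -0.01 and -0.03. Without the 2 Ezh2+/- libraries that go against a label no call among the 10 genes changed, and 6.02% of all genes were called in the Ezh2+/- pair. Separation of the libraries was also counted. In the Ezh2-/- pair the groups did not overlap for 4 of the 10 genes, Socs2, Cish and Osm higher and Bcl6 lower, as for 6.84% of all genes, 3.87% higher and 2.96% lower. They did not overlap for Socs2 in the Ezh2+/- pair, as for 1.43% of all genes (0.769% higher, 0.662% lower), and for Socs2 in the intact-Ezh2 pair, as for 6.26% of all genes (3.49% higher, 2.77% lower). A count that misses the threshold in one pair does not show that the pairs differ, and the difference between the first and the last pair is tested further on.

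**Figure D2:**
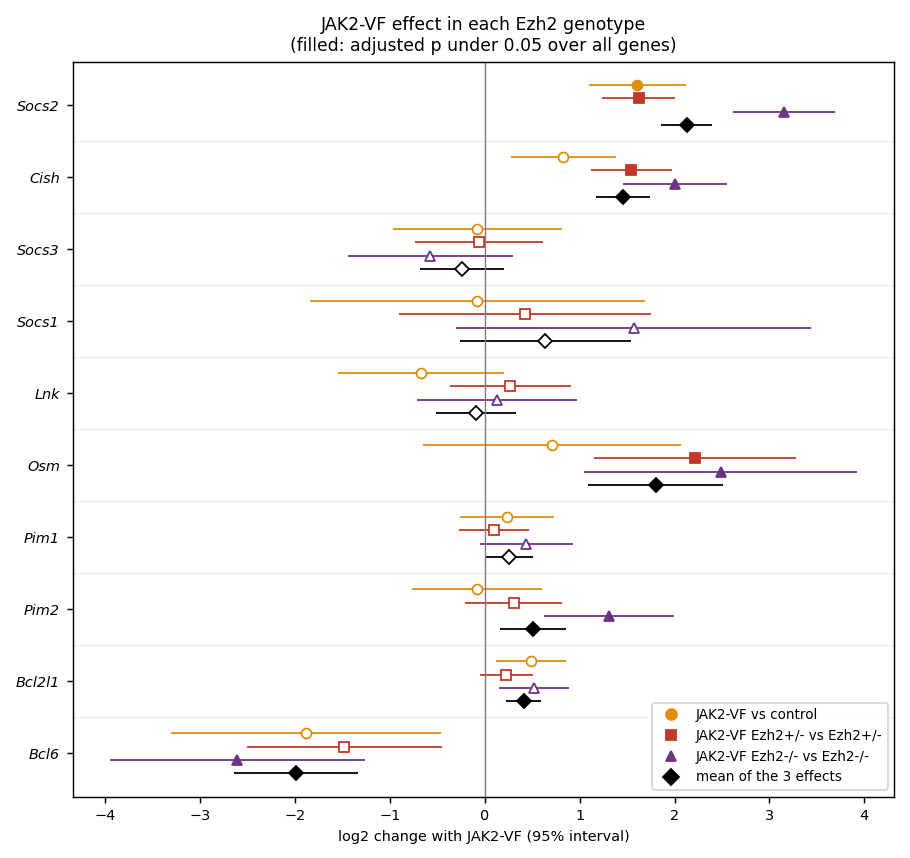
Log2 change with JAK2V617F for each of the 10 genes, in the 3 Ezh2 genotypes and as their mean, with 95% intervals from edgeR. Filled symbols passed the adjusted threshold over all genes. The mean change is 2.13 for Socs2 and -1.99 for Bcl6, and the intervals of Socs3 and Lnk span 0 in every comparison.

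Other features of the libraries moved with JAK2V617F beside these genes. Calls in the following lists are from the averaged comparison, where 12.9% of all genes were higher and 12.5% lower. All 32 proliferation genes listed rose in the averaged comparison, and their summed level was 2576 to 5801 CPM in the libraries with JAK2V617F, against 971 to 2517 CPM in those without. Of 12 LT-HSC markers 8 fell and 0 rose, with summed levels of 2534 to 4377 CPM, against 4141 to 6112 CPM. Of 7 mast cell and basophil markers Mcpt8 and Prss34 rose. The list summed to 4.43 to 84.4 CPM with JAK2V617F, against 0 to 31.9 CPM without. Prss34 was at 0 in most libraries of every group, with JAK2V617F or without, and Mcpt8 in most Ezh2-/- libraries. Gzmb was at 0 in all Ezh2-/- and control libraries. Of 14 neutrophil and monocyte markers none was called and none was at 0 in a whole group, and the list summed to 990 to 18700 CPM, against 811 to 8093 CPM. Among the other lists, 3 of 11 megakaryocyte and platelet genes rose, 2 of 12 erythroid genes rose and 5 fell, 1 of 5 T and NK cell genes tested rose and 1 fell, 1 of 7 endothelial and stromal genes fell, and 0 of 7 B cell genes tested moved. The part of these changes in the results on the 10 genes was not tested.

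Cish (Entrez gene 12700, chromosome 9) encodes CIS, an SH2 protein that docks on activated cytokine receptors and blocks STAT5 recruitment. It had 252, 465.5 and 723 CPM (lowest, median and highest library, here and below for groups of more than 5) in JAK2-VF Ezh2-/- libraries, against 80.6, 166, 142 and 115 CPM in the 4 Ezh2-/- libraries. These groups did not overlap. JAK2-VF Ezh2+/- libraries had 176, 429 and 648 CPM, against 107, 126 and 181 CPM in Ezh2+/- libraries, with 7 of 8 above the whole Ezh2+/- group. JAK2-VF libraries had 132, 307 and 399 CPM, against 144, 104, 124 and 164 CPM in controls, with 5 of 6 above every control. Over all genotypes 18 of the 20 libraries with JAK2V617F stood above each of the 15 without. The exceptions were both from batch 1.

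The log2 change of Cish was 2.005 ± 0.27 (SE, edgeR adjusted p = 1.61e-05) in the Ezh2-/- pair and 1.545 ± 0.21 (edgeR adjusted p = 7.21e-06) in the Ezh2+/- pair. With intact Ezh2 it was 0.83 ± 0.27 and did not pass (edgeR adjusted p = 0.0765). Averaged over genotypes it was 1.46 ± 0.14 (edgeR adjusted p = 2.12e-09). Cish also differed between batches and was higher in batch 2 by 0.68 ± 0.14 (edgeR adjusted p = 0.000281). With batch 1 alone, the averaged change was 1.05 ± 0.31 and did not pass (edgeR adjusted p = 0.0863), and with batch 2 alone it was 1.77 ± 0.13 (edgeR adjusted p = 4.76e-08). In the intact-Ezh2 pair the values within batches were 0.38 ± 0.41 in batch 1 and 1.36 ± 0.27 in batch 2, and Cish passed there under DESeq2 (adjusted p = 0.049).

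Socs2 (Entrez gene 216233, chromosome 10) encodes a SOCS box protein best known for restraining growth hormone signalling. It had 110, 241 and 312 CPM in JAK2-VF Ezh2-/- libraries, against 29.4, 32.4, 18.2 and 35.1 CPM in Ezh2-/- libraries. The JAK2-VF Ezh2+/- libraries had 121, 162 and 216 CPM, against 38.3, 49.4 and 120 CPM in Ezh2+/- libraries. The JAK2-VF libraries had 99.9, 146 and 171 CPM, against 37.1, 24.2, 48.6 and 54.4 CPM in controls. No library with JAK2V617F fell within the range of its counterpart group in any of the 3 pairs.

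The log2 change of Socs2 was 3.16 ± 0.26 in the Ezh2-/- pair, where it had the smallest p of all genes (edgeR adjusted p = 2.33e-09). It was 1.62 ± 0.19 in the Ezh2+/- pair (edgeR adjusted p = 1.03e-06) and 1.61 ± 0.25 with intact Ezh2 (edgeR adjusted p = 0.000256). Averaged over genotypes it was 2.13 ± 0.13, the second-smallest p of all genes (edgeR adjusted p = 2.38e-13). Within batches the averaged change was nearly equal, 2.14 ± 0.24 in batch 1 and 2.11 ± 0.18 in batch 2, and Socs2 was the single member that passed in batch 1, where 3.56% of all genes were called. In the intact-Ezh2 pair alone it did not pass within batch 2 (1.43 ± 0.38, edgeR adjusted p = 0.168), nor in the Ezh2-/- pair within batch 1 (2.87, edgeR adjusted p = 0.103), where Ezh2-/- had 1 library.

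Socs3 (Entrez gene 12702, chromosome 11), the main feedback inhibitor of the gp130 receptor and a target of STAT3 as well as STAT5, did not pass in any comparison. It had 47.2, 140 and 177 CPM in JAK2-VF Ezh2-/- libraries, against 93.2, 224, 344 and 193 CPM in Ezh2-/- libraries. The spread within groups was wide, and the groups of every pair overlapped. JAK2-VF Ezh2+/- libraries had 115, 169 and 238 CPM, against 73.6, 110 and 332 CPM in Ezh2+/- libraries. JAK2-VF libraries had 89.5, 146 and 258 CPM, against 119, 29.7, 235 and 285 CPM in controls. The low control was a batch 1 library, and Socs3 was higher in batch 2 in the whole fit. The averaged log2 change was -0.24 ± 0.22, with a 95% interval from -0.68 to 0.20 (edgeR adjusted p = 0.468). Both a 2-fold rise and a 2-fold fall lie outside that interval.

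Socs1 (Entrez gene 12703, chromosome 16), an inhibitor that blocks the JAK kinase domain, was near the limit of counting. Its count in a library ran from 1 to 133. In JAK2-VF Ezh2-/- libraries it had 1.95, 3.44 and 4.34 CPM, against 5.22, 0.23, 0.71 and 0.91 CPM in Ezh2-/- libraries. The single Ezh2-/- library of batch 1 lay above the whole JAK2-VF Ezh2-/- group. JAK2-VF Ezh2+/- libraries had 0.56, 0.90 and 3.05 CPM, against 0.068, 0.88 and 4.18 CPM in Ezh2+/- libraries. JAK2-VF libraries had 0.44, 1.15 and 1.29 CPM, against 0.43, 1.37, 1.35 and 0.18 CPM in controls. The averaged change with JAK2V617F was 0.64 ± 0.44, with an interval from -0.26 to 1.54 (edgeR adjusted p = 0.315).

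Lnk (Entrez gene 16923, chromosome 5), an adaptor that restrains JAK2 signalling in stem cells, did not pass in any comparison. It had 3.41, 6.71 and 8.29 CPM in JAK2-VF Ezh2-/- libraries, against 7.96, 4.57, 5.58 and 6.82 CPM in Ezh2-/- libraries. Lnk had 4.87, 7.52 and 13.5 CPM in JAK2-VF Ezh2+/- libraries, against 3.99, 5.05 and 12.4 CPM in Ezh2+/- libraries. The JAK2-VF libraries had 3.64, 6.04 and 10.97 CPM, against 11.7, 15.8, 6.46 and 6.46 CPM in controls, and the 2 higher controls were the batch 1 libraries. The averaged log2 change was -0.09 ± 0.21, with an interval from -0.51 to 0.33 (edgeR adjusted p = 0.804).

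Osm (Entrez gene 18413, chromosome 11) encodes oncostatin M, a cytokine of the IL-6 family and an early-described STAT5 target in hematopoietic cells. It had 11.4, 20.97 and 27.4 CPM in JAK2-VF Ezh2-/- libraries, against 8.98, 0.23, 8.23 and 6.23 CPM in Ezh2-/- libraries, with no overlap. In the Ezh2+/- pair it had 8.67, 19.4 and 25.5 CPM with JAK2V617F, against 0.56, 4.26 and 14.4 CPM without, and 6 of 8 libraries stood above the whole Ezh2+/- group. With intact Ezh2 it had 7.07, 16.5 and 20.3 CPM in JAK2-VF libraries, against 4.33, 11.7, 1.53 and 5.31 CPM in controls. All 20 libraries with JAK2V617F were above the mean of the 15 without, and 15 of them above every one.

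Averaged over genotypes, Osm rose by 1.80 ± 0.35 (log2, edgeR adjusted p = 0.000209). In the Ezh2+/- pair it rose by 2.21 ± 0.52 (edgeR adjusted p = 0.00561). In the intact-Ezh2 pair the change was 0.71 ± 0.67 and did not pass (edgeR adjusted p = 0.646). In the Ezh2-/- pair it was 2.49 ± 0.71 (edgeR adjusted p = 0.0344), and this call rested on few libraries. It was lost without any 1 of 5 of the 10 libraries, replicates 1 of batch 1 and 2 of batch 2 in JAK2-VF Ezh2-/-, and replicates 1 of batch 1 and 1 and 3 of batch 2 in Ezh2-/-, with changes of 1.89 to 2.70 (edgeR adjusted p = 0.0508 to 0.143). It was also lost with no term for sex, at 1.75 (edgeR adjusted p = 0.121), with batch 2 alone, at 2.46 (edgeR adjusted p = 0.087), with the compared groups only, at 3.75 (edgeR adjusted p = 0.0713), and with the replicate number as a block, at 2.66 (edgeR adjusted p = 0.0655). Among females alone the change was 6.41 (edgeR adjusted p = 0.0555), with 1 Ezh2-/- library, at 7 counts. Within batches the averaged change was 1.56 ± 0.97 in batch 1 and 2.35 ± 0.42 in batch 2 (edgeR adjusted p = 0.465 and 0.000733). Averaged over genotypes the change among females was 3.21 ± 0.57 and passed (edgeR adjusted p = 0.00151).

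The receptor subunit specific to oncostatin M, Osmr, moved the other way. It had 0 counts in all 6 JAK2-VF Ezh2-/- and all 8 JAK2-VF Ezh2+/- libraries and 14 counts in 1 of 6 JAK2-VF libraries. Without JAK2V617F it had counts in 3 of 4 Ezh2-/- libraries, in 6 of 7 Ezh2+/- libraries and in all 4 controls, and at most 201 counts in a library. It fell in the averaged comparison (edgeR adjusted p = 1.98e-05) and in the Ezh2+/- pair (edgeR adjusted p = 0.00143). In that pair the log2 change was -9.59 ± 1.78. The pooled level of the Ezh2+/- libraries was 247-fold the level that 3 counts over all JAK2-VF Ezh2+/- libraries would give. This ratio leaves out the spread between libraries, which ran from 0 to 193 counts in Ezh2+/-, and is no lower bound on the change.

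Pim2 (Entrez gene 18715, chromosome X) and Pim1 (Entrez gene 18712, chromosome 17) encode serine/threonine kinases that promote survival and translation and whose activity is set mainly by their abundance. Pim2 had 61.5, 155 and 242 CPM in JAK2-VF Ezh2-/- libraries, against 66.2, 71.2, 76.5 and 71.4 CPM in Ezh2-/- libraries, with 5 of 6 above all 4. JAK2-VF Ezh2+/- libraries had 35.3, 133 and 225 CPM, against 59.1, 90.2 and 147 CPM in Ezh2+/- libraries, with wide overlap. JAK2-VF libraries had 53.4, 109 and 166 CPM, against 71.9, 118, 94.2 and 69.1 CPM in controls, with 3 JAK2-VF libraries above every control and 2 below every control. The 2 low ones were the batch 1 libraries. On a log2 scale, Pim2 rose in the Ezh2-/- pair by 1.31 ± 0.34 (edgeR adjusted p = 0.0184) and on average by 0.51 ± 0.17 (edgeR adjusted p = 0.0246). With intact Ezh2 the change was -0.08 ± 0.34 (edgeR adjusted p = 0.945).

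Both Pim2 calls depended on single libraries. The first was lost without replicate 1 or replicate 3 of batch 2 of Ezh2-/- (1.29 and 1.25, edgeR adjusted p = 0.0813 and 0.0594), and the second without replicate 2 or replicate 4 of batch 2 of the controls (0.48 and 0.44, edgeR adjusted p = 0.0519 and 0.0641). The sign also differed between batches. The averaged change of Pim2 was -0.36 ± 0.31 in batch 1 and 0.96 ± 0.16 in batch 2 (edgeR adjusted p = 0.666 and 0.000456). Pim1 had the same split, -0.41 ± 0.22 in batch 1 and 0.57 ± 0.13 in batch 2 (edgeR adjusted p = 0.392 and 0.00596). The difference between batches was not tested.

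Pim1 itself was higher in batch 1, where libraries without JAK2V617F reached 60.5 CPM. It had 21.6, 36.5 and 44.3 CPM in JAK2-VF Ezh2-/- libraries, against 35.9, 21.4, 16 and 19.1 CPM in Ezh2-/- libraries. Pim1 had 25.8, 31.3 and 38.2 CPM in JAK2-VF Ezh2+/- libraries, against 18.7, 23.1 and 60.5 CPM in Ezh2+/- libraries. It had 22.5, 26.5 and 37.3 CPM in JAK2-VF libraries, against 31.3, 36.8, 21.9 and 19.5 CPM in controls. The groups of every pair overlapped. Over both batches its averaged log2 change was 0.26 ± 0.12 (unadjusted p = 0.0443, edgeR adjusted p = 0.128), and it passed without replicate 3 of batch 1 of Ezh2+/-, one of the doubted libraries (0.32, edgeR adjusted p = 0.0375). Pim3, the remaining paralog, fell by 0.81 ± 0.15 on average (edgeR adjusted p = 0.00013).

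Bcl2l1 (Entrez gene 12048, chromosome 2) encodes BCL-XL, an anti-apoptotic protein needed for erythroid and platelet survival, and its long and short splice forms, which act in opposite ways on apoptosis, are summed in these counts. It had 142, 166 and 215 CPM in JAK2-VF Ezh2-/- libraries, against 103, 105, 167 and 111 CPM in Ezh2-/- libraries. JAK2-VF libraries had 148, 179 and 185 CPM, against 108, 156, 107 and 109 CPM in controls, with 5 of 6 above every control. Bcl2l1 had 96.2, 162 and 211 CPM in JAK2-VF Ezh2+/- libraries, against 116, 136 and 176 CPM in Ezh2+/- libraries, and the groups overlapped broadly. The averaged log2 change was 0.41 ± 0.09 (edgeR adjusted p = 0.00106), a rise of the smallest size among the genes that passed. None of the single pairs passed, with 0.52 ± 0.18 and 0.49 ± 0.18 in the Ezh2-/- and intact-Ezh2 pairs (edgeR adjusted p = 0.0972 and 0.132). The first of these passed without replicate 2 of batch 2 of Ezh2-/-, at 0.67 (edgeR adjusted p = 0.0313). The change was 0.28 ± 0.21 in batch 1 and 0.47 ± 0.09 in batch 2 (edgeR adjusted p = 0.585 and 0.00185).

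Bcl6 (Entrez gene 12053, chromosome 16), a transcriptional repressor that competes with STAT5 at shared DNA sites and is repressed by STAT5 in lymphoid cells, was the one member that fell. It had 1.09, 2.26 and 4.30 CPM in JAK2-VF Ezh2-/- libraries, against 10.7, 26.3, 13.6 and 18.1 CPM in Ezh2-/- libraries, with no overlap. JAK2-VF Ezh2+/- libraries had 1.08, 2.29 and 4.46 CPM, against 1.08, 5.25 and 10.3 CPM in Ezh2+/- libraries. JAK2-VF libraries had 0.26, 2.17 and 3.79 CPM, against 3.24, 4.19, 7.30 and 18.2 CPM in controls. All 20 libraries with JAK2V617F lay below the mean of the 15 without, and 11 of those 15 lay above every library with JAK2V617F.

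The log2 change of Bcl6 was -1.99 ± 0.32 averaged over genotypes (edgeR adjusted p = 1.81e-05), with -2.12 ± 0.78 in batch 1 and -1.999 ± 0.30 in batch 2 (edgeR adjusted p = 0.166 and 0.000174). The single pairs were further apart between batches, with -1.58 ± 1.49 in batch 1 and -3.75 ± 0.59 in batch 2 in the Ezh2-/- pair, -1.73 ± 1.03 and -1.05 ± 0.43 in the Ezh2+/- pair, and -3.04 ± 1.06 and -1.20 ± 0.64 in the intact-Ezh2 pair. In the Ezh2-/- pair it was -2.60 ± 0.66 (edgeR adjusted p = 0.0168). This call was lost without replicate 1 of batch 2 of Ezh2-/- or replicate 2 of batch 2 of JAK2-VF Ezh2-/- (-2.31 and -2.24, edgeR adjusted p = 0.125 and 0.0666). In the Ezh2+/- pair it was -1.48 ± 0.50 (edgeR adjusted p = 0.0598), and it passed, at -1.60 to -1.69, without any 1 of 3 libraries: replicates 1 of batch 1 and 1 of batch 2 with JAK2V617F, or replicate 2 of batch 2 of Ezh2+/- (edgeR adjusted p = 0.0403, 0.0461 and 0.0291). With intact Ezh2 it was -1.88 ± 0.70 (edgeR adjusted p = 0.13), -1.20 without replicate 4 of batch 2 of the controls (edgeR adjusted p = 0.442) and -3.81 among females alone (edgeR adjusted p = 0.0312). The females held 2 JAK2-VF libraries, both of batch 1, at 6 and 13 counts. The JAK2-VF libraries of batch 2, all male, had 1.97 to 3.79 CPM. DESeq2 called Bcl6 in the Ezh2+/- and in the intact-Ezh2 pair (adjusted p = 0.0214 and 0.0446).

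**Figure D3:**
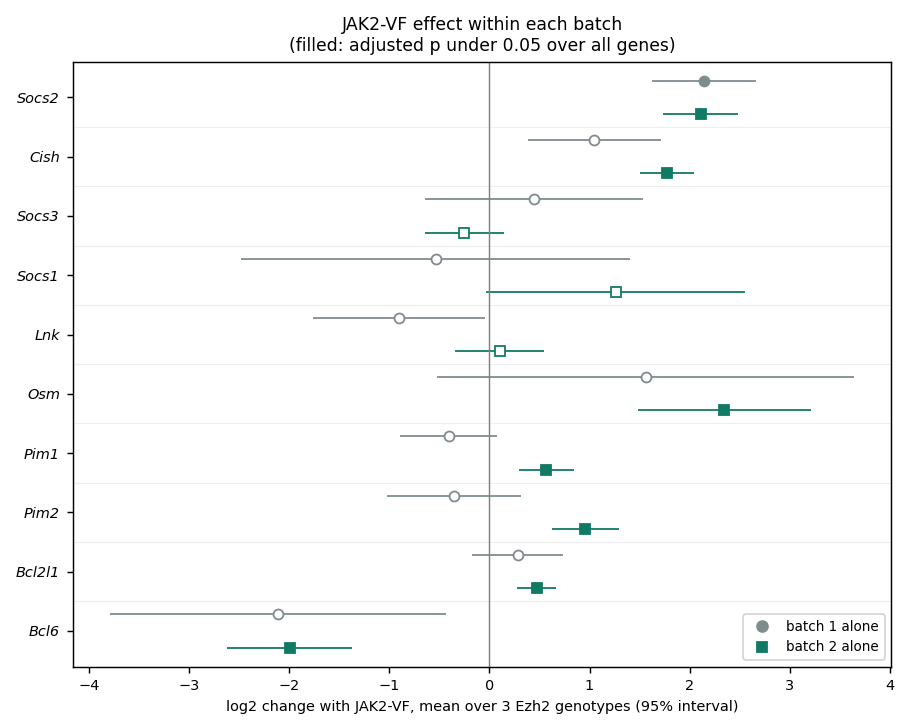
Log2 change with JAK2V617F averaged over the 3 Ezh2 genotypes, fitted within batch 1 and within batch 2, with 95% intervals. Filled symbols passed the adjusted threshold over all genes. Socs2 (2.14 and 2.11) and Bcl6 (-2.12 and -1.999) lie at like values in batch 1 and batch 2, and Pim1 and Pim2 lie on opposite sides of 0.

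Terms for batch and sex were part of the fit. The batch term was called for 28.2% of all genes, and among the 10 it was called for Cish, Pim2, Socs2 and Socs3, higher in batch 2 by 0.68, 0.63, 0.44 and 0.62, and for Pim1, lower in batch 2, with a log2 change of -0.43. The sex term was called for 7 genes (0.0468%), none of them among the 10. In batch 2 alone 7 of the 10 genes passed in the averaged comparison, Pim1 being the addition, where 13.7% of all genes were called.

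In cells with JAK2V617F that also lacked Ezh2, the values of Socs2, Cish, Pim2 and Socs1 were higher than with intact Ezh2, and none of these differences passed the adjusted threshold. In JAK2-VF Ezh2-/- against JAK2-VF libraries 0 of the 10 genes were called by edgeR, where 0.448% of all genes were (0.375% higher, 0.0736% lower), and 4 had an unadjusted p under 0.05. The log2 difference of Socs2 was 0.85 ± 0.21 (edgeR adjusted p = 0.0615), with 5 of 6 JAK2-VF Ezh2-/- libraries above every JAK2-VF library. The exception, replicate 2 of batch 1, had 110 CPM, and without it the change was 0.96 and passed (edgeR adjusted p = 0.0153). DESeq2 called Socs2 in this comparison (adjusted p = 0.00556). Cish differed by 0.83 ± 0.23 (edgeR adjusted p = 0.142) and Pim2 by 0.75 ± 0.29 (edgeR adjusted p = 0.449). For Socs1 the change was 1.96 ± 0.79 (edgeR adjusted p = 0.487), with 1.95 to 4.34 CPM in JAK2-VF Ezh2-/- libraries, against 0.44 to 1.29 CPM in JAK2-VF libraries. Socs1 was the one member whose groups did not overlap here, as for 0.97% of all genes (0.796% higher, 0.174% lower). Within batches the difference of Socs2 was 0.71 ± 0.30 in batch 1 and 0.94 ± 0.30 in batch 2, that of Cish 0.82 ± 0.39 and 0.83 ± 0.21, and that of Pim2 0.86 ± 0.42 and 0.74 ± 0.28. For Bcl6 it was 0.40 ± 0.67 over both batches (edgeR adjusted p = 0.992), with 2.89 ± 1.01 in batch 1 and -1.39 ± 0.56 in batch 2.

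Without JAK2V617F, the values of Socs2, Cish and Pim2 were not higher in cells lacking Ezh2. In Ezh2-/- against control libraries 0 of the 10 genes passed under edgeR or DESeq2, and 0 of all genes were called by edgeR (0.0%), while DESeq2 called 97 of all genes. For none of the 10 did the groups separate, as they did for 2.81% of all genes (1.43% higher, 1.39% lower). One of the 10 had an unadjusted p under 0.05: Socs2, with a change of -0.70 ± 0.27 (edgeR adjusted p = 0.78) and 3 of 4 controls above every Ezh2-/- library. Cish and Pim2 differed by -0.34 ± 0.29 and -0.64 ± 0.37, and Socs1 by 0.31 ± 0.99 (edgeR adjusted p = 0.98, 0.893 and 0.998). Bcl6 had 10.7 to 26.3 CPM in Ezh2-/- libraries, against 3.24 to 18.2 CPM in controls, a change of 1.12 ± 0.70 (edgeR adjusted p = 0.928).

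**Figure D4:**
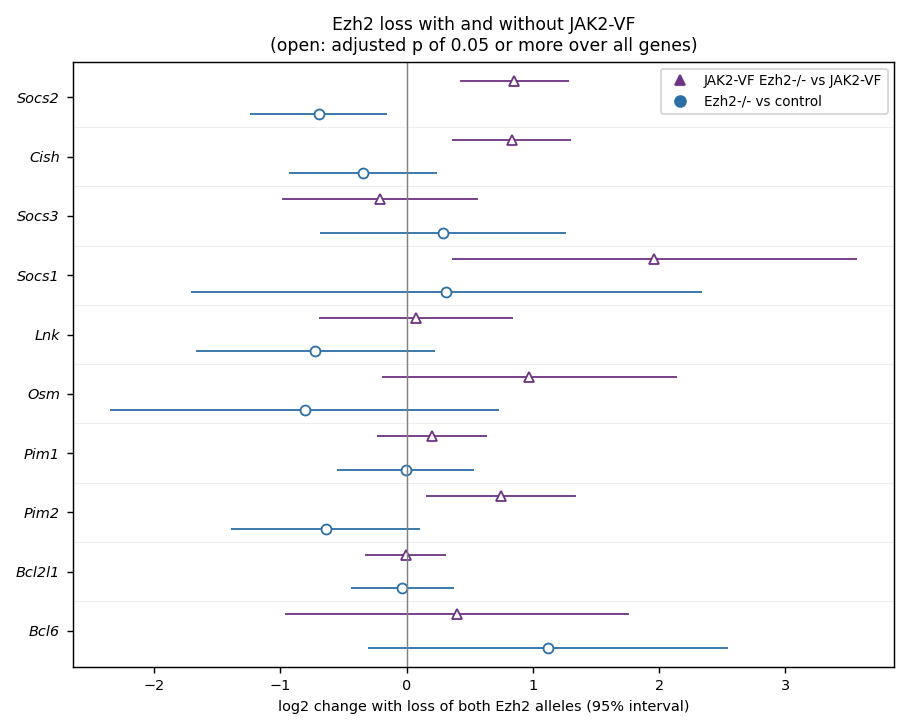
Log2 change with loss of both copies of Ezh2 for each of the 10 genes, in cells with JAK2V617F (triangles) and without (circles), with 95% intervals from edgeR. No change passed the adjusted threshold. The Socs2 intervals of the 2 comparisons lie on opposite sides of 0, at 0.85 and -0.70.

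The difference between the JAK2V617F effect without Ezh2 and that with intact Ezh2 was tested as an interaction, which draws on the same 4 groups as the comparisons it joins. By edgeR it was called for 1 gene of all (0.00669%) and for 0 of the 10, of which 3 had an unadjusted p under 0.05. For Socs2 the difference was 1.55 ± 0.36, with a 95% interval from 0.81 to 2.28 (edgeR adjusted p = 0.211), and DESeq2 called it (adjusted p = 0.00464). For Pim2 it was 1.39 ± 0.50 and for Cish 1.18 ± 0.39 (edgeR adjusted p = 0.67 and 0.554). For Bcl2l1 it was 0.03 ± 0.27, with an interval from -0.52 to 0.58.

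Lack of one copy of Ezh2 gave no call among the 10 genes with JAK2V617F or without. In JAK2-VF Ezh2+/- against JAK2-VF libraries 0 of all genes passed by edgeR (0.0%), and 1 of the 10, Cish, had an unadjusted p under 0.05 (log2 change 0.67 ± 0.21, edgeR adjusted p = 1). In Ezh2+/- against control libraries 0 of all genes passed (0.0%) and 0 of the 10 had an unadjusted p under 0.05. DESeq2 called none of the 10 in either, and 44 and 64 of all genes. The groups separated for none of the 10, as they did for 0.0401% (lower in each case) and for 0.308% of all genes (0.161% higher, 0.147% lower). For Socs2 the intervals were -0.03 to 0.75 with JAK2V617F and -0.14 to 0.83 without.

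Upstream of the targets, 1 of 11 JAK and STAT genes rose and 3 fell in the averaged comparison, where 12.9% of all genes were higher and 12.5% lower. Jak2 rose by 0.53 ± 0.09 (edgeR adjusted p = 2.84e-05), and Jak3, Stat2 and Stat3 fell, by 0.50 ± 0.09, 0.36 ± 0.10 and 0.36 ± 0.08 (edgeR adjusted p = 4.04e-05, 0.00546 and 0.000561). Stat5a and Stat5b did not pass, with -0.08 ± 0.07 and -0.16 ± 0.09 (edgeR adjusted p = 0.396 and 0.217). In the intact-Ezh2 pair alone Jak2 did not pass (0.39 ± 0.17, edgeR adjusted p = 0.222). Whether the Jak2 counts include reads of the JAK2V617F sequence, whose species is not stated, was not tested. Of 17 tested receptor genes that work through JAK2, 2 rose and 5 fell in the averaged comparison. Csf2rb, the shared subunit of the IL-3, IL-5 and GM-CSF receptors, had 83.3 to 132 CPM in JAK2-VF Ezh2-/- libraries, against 9.998 to 27.8 CPM in Ezh2-/- libraries, and rose on average by 1.92 ± 0.14 (edgeR adjusted p = 4.09e-12). It also rose in each pair, by 2.28, 1.83 and 1.65 without Ezh2, with one copy and with both. Other called receptor genes included Csf2rb2 (0.74), Ghr (-0.82), Ifngr1 (-0.32), Csf2ra (-0.31) and Osmr.

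Other inhibitors and other STAT5 targets did not rise together. Of 24 other negative regulators of cytokine signalling, among them Socs4 to Socs7, the PIAS genes and phosphatase genes, 0 rose and 3 fell in the averaged comparison, with a median log2 change of -0.09. They were Spry2 (-0.47), Sh2b1 (-0.40) and Spred1 (-0.29). Of 27 other STAT5 target genes tested 7 rose and 10 fell, with a median of -0.21. The 5 with the smallest adjusted p were the pseudokinase gene Trib2 (-2.06 ± 0.21), Fhl1 (-1.07 ± 0.11), the immediate-early gene Egr1 (0.68 ± 0.10), the cyclin gene Ccnd1 (-0.85 ± 0.13) and Xbp1, a transcription factor of the unfolded protein response (0.50 ± 0.09), each with an edgeR adjusted p of 0.000119 or less. Within the Ezh2-/-, Ezh2+/- and intact-Ezh2 pairs 1, 2 and 2 of the 27 rose and 2, 4 and 3 fell, and Trib2 and Fhl1 fell in each. Xbp1 was also the one gene of these lists, and of the marker and proliferation lists, called in JAK2-VF Ezh2-/- against JAK2-VF libraries (0.84 ± 0.16, edgeR adjusted p = 0.00699). Of 12 other BCL2 family genes tested 0 rose and Bcl2 fell (-0.42 ± 0.08, edgeR adjusted p = 0.000167), where Bcl2l1 had risen by 0.41. In the averaged comparison the shares of these lists stand beside 12.9% higher and 12.5% lower over all genes. In the Ezh2-/-, Ezh2+/- and intact-Ezh2 pairs 2.84%, 4.82% and 2.34% of all genes were higher and 1.97%, 4.18% and 1.81% lower. In JAK2-VF Ezh2-/- against JAK2-VF libraries, where Xbp1 was called, 0.375% of all genes were higher.

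The genes whose group means most resembled those of each called member were sought among 9612 genes, as the root mean square difference of 6 group means of log2 CPM after centring and scaling. Socs2 was most like Fam162a (0.0585), Cibar1 (0.0746) and Abcb1b (0.0892). For Cish these were Sacm1l, Mrpl13 and Snx22, for Pim2 Mrps15, Lonp1 and Serpina3g, and for Osm Psmb5, Hint1 and Tcp1. For Bcl2l1 they were Vrk1, Far2 and Psmc1, and for Bcl6 Klk8, Slc35f2 and Mettl7a1. No member of the 10 was among the nearest 3 of another, and the closest pair of members, Cish and Osm, differed by 0.173. Likeness over 6 means describes these groups only.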

How the data were processed

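The deposited files hold, per library, the authors' unnormalized read counts for 19138 genes by Entrez ID with each gene's counted length in bases. Per the labels, each library came from 1000 sorted cells and a SMARTer low-input kit, and the submitters' processing notes name STAR and mm9. How reads were counted, on which annotation and whether by strand, is not stated in what was used here, so overlapping and antisense genes cannot be told apart. Counts were fitted in R 4.3.3 with edgeR 4.0.16 (TMM scaling, filterByExpr, quasi-likelihood test) with group, batch and sex as terms, in 1 fit of the 35 libraries. Adjusted p is Benjamini-Hochberg over 14945 genes with a threshold of 0.05, SEs come from the F statistic, and intervals are 95%. The averaged JAK2V617F comparison weights the 3 Ezh2 genotypes equally. CPM are counts per TMM-scaled library total, and per kb values use the deposited length. DESeq2 1.42.0 was an alternative. The edgeR fit was tested on simulated counts with changes planted in the JAK2-VF libraries. Against controls it found 50 of 100 planted 2-fold changes and 92 of 100 planted 4-fold changes, with 8 false calls in all.

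The 10 genes and all gene lists were chosen with earlier results of these data known. By a written rule, all 10 genes are given with their levels, with statistics wherever the unadjusted p was under 0.05, together with up to 5 called genes per list and the 3 genes most like each called member in pattern. Like genes were sought above a mean log2 CPM of 3. Other settings tried were DESeq2 size factors, no low-count filter, no term for sex, a replicate block, either batch or females alone, the compared groups only, and leaving out single libraries or both doubted ones. No 2 libraries held identical counts.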

Additional observations from a re-analysis of the deposited data

Results flagged for a closer look

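A library was singled out where its gap to the nearest of its group exceeded the critical share of the group's range (Dixon's test), which chance alone reaches in about 1 in 20 groups. Of 60 gene and group combinations, 4 met this. Replicate 1 of batch 1 of Ezh2-/- had 5.217 CPM of Socs1, against 0.2302 to 0.9132 CPM in the other 3 Ezh2-/- libraries, and it is the only batch 1 library of that group. Replicate 2 of batch 2 of Ezh2+/- had 119.6 CPM of Socs2, against 38.33 to 56.58 CPM in the other 6. For Bcl2l1, replicate 2 of batch 2 of Ezh2-/- had 166.6 CPM, against 102.8 to 110.7 CPM in the other 3, and replicate 2 of batch 1 of the controls had 156.1 CPM, against 106.7 to 109.0 CPM in the other 3.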

How the results depend on the processing

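With intact Ezh2, 1 of the 10 genes was called (Socs2), against 2 with no low-count filter (Cish added), 3 with DESeq2 and 3 with no term for sex (Cish and Bcl6 added), and 2 among females (Bcl6 added). Within batch 2 it was also 1, Cish in place of Socs2. In the Ezh2+/- pair 3 became 1 with batch 1 alone. In the Ezh2-/- pair 5 became 0 with batch 1 alone, 1 among females, and 2 to 6 when single libraries were left out. In the averaged comparison 6 became 1 with batch 1 alone, where Pim1 (-0.408) and Pim2 (-0.3552) had the opposite sign, and Pim2 was not called among females (0.36, edgeR adjusted p = 0.459). For JAK2-VF Ezh2-/- against JAK2-VF, 0 became 2 with no low-count filter (Socs2 and Cish), 1 with DESeq2 (Socs2), 1 with the compared groups only (Cish), and 0 to 1 without single libraries. For the difference of JAK2V617F effects, 0 became 1 with DESeq2 (Socs2). The cause of these changes was not tested, and the subsets held fewer libraries. The DESeq2 size factors and leaving out both doubted libraries changed no count of the 10 genes, but over all genes leaving both out gave 898 calls in the Ezh2+/- pair, against 1345 with them. The intact-Ezh2 pair had 620 calls over all genes, against 1003 with DESeq2 and 279 to 652 without single libraries. The Ezh2-/- pair had 719, against 1117 with DESeq2 and 344 to 649 without single libraries.

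Titles give replicate numbers, and a fit with the number as a replicate block called 1, 3, 4 and 6 of the 10 genes in the intact-Ezh2, Ezh2+/-, Ezh2-/- and averaged comparisons and 0 in the others. Osm in the Ezh2-/- pair was the call not made (2.66, edgeR adjusted p = 0.0655). Residuals of 69 same-numbered pairs correlated at -0.177 to 0.077, 0 of them over 0.1, and 0 libraries were closest to their own number. No sign of pairing by number was seen. Low correlations over all genes cannot exclude it, since a pairing may leave little trace in them. The averaged comparison has no value with the compared groups only, since it uses all groups. Counts in a library were as low as 1 for Socs1, 6 for Bcl6, 7 for Osm and 66 for Lnk, which limits their precision.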
